A study of Mus musculus with 12 samples.

Results

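The genes followed here serve antigen presentation by class I molecules of the major histocompatibility complex (MHC). They are the heavy chains H2-K1, H2-D1, H2-Q10, H2-T23 and H2-M3, the shared light chain B2m, the peptide transporter subunits Tap1 and Tap2, and the peptide loading factors Tapbp (tapasin) and Tapbpl (a tapasin-like peptide editor). They were chosen by name, as every non-control probe that the array files assign to one of these 10 genes, out of 27962 gene names on the array. The 10 genes had 20 probes in 38 spots, and all 20 probes passed the filter on dim signals that 27718 of the 41174 probes passed. Peritoneal exudate cells, the mixed leukocytes and lining cells washed from the abdominal cavity, were taken from female mice of 8 weeks, 3 hours after an injection into that cavity. The 4 groups were Ifnar2-/- mice given interferon beta (IFN-β, 10000 IU/ml with no volume stated), Ifnar2-/- mice given phosphate-buffered saline (PBS), wild-type mice given IFN-β and wild-type mice given PBS, with 3 single-colour arrays a group and a different mouse for each. All 4 groups carry the same strain label, 129S2/SvPas*BALB/c, and Ifnar2 encodes a subunit of the receptor for type I interferons. Every level below is a processed signal on the log2 scale, relative to the 75th percentile of its own array. Every difference is in log2 units with its standard error (SE), and a probe was called when its adjusted p from limma (Benjamini-Hochberg over the 27718 probes) was under 0.05.

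Class I molecules carry peptides from inside the cell to its surface, where CD8 T cells and natural killer cells read them. The proteasome cuts proteins, the Tap1-Tap2 pump moves the peptides into the endoplasmic reticulum, tapasin holds an empty heavy chain with its light chain beside the pump until a peptide fits, and the complex then leaves for the surface. Type I interferon is known to raise most of these genes through factors that bind interferon response elements, IRF9 among them, and through IRF1 and NLRC5. The heavy chain genes are highly polymorphic and alike in sequence, and the strains named in the label carry different versions of the H2 region, the b haplotype in 129S2/SvPas and the d haplotype in BALB/c.

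The heavy chain probes were compared with each other for shared bases, and not with the transcripts of the other genes. Shared runs therefore do not show how well a probe separates heavy chains. Among the 12 heavy chain probes of the 5 genes, the 55 pairs from different genes shared runs of 4 to 20 identical bases, with a median of 6. The longest joined an H2-K1 probe and an H2-Q10 probe, shown here with the shared 20 bases in capitals.
H2-K1 probe A_52_P50496, chr17:32077678-32077737, minus strand, mm7: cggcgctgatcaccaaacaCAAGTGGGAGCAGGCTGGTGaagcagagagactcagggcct
H2-Q10 probe A_52_P428354, chr17:33571803-33571862, plus strand, mm7: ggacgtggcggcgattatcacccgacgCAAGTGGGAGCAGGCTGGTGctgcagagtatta
The brightest H2-Q10 probe shared more with a gene outside the 10. Its first 35 bases, in capitals, are also the end of the H2-Q5 probe below them, and the files link it to 4 RefSeq accessions, of H2-Bl, H2-Q1, H2-Q10 and H2-Q6. H2-Q10 values from it may therefore come in part from other Q genes.
H2-Q10 probe A_51_P496997, chr17:33574106-33574165, plus strand, mm7: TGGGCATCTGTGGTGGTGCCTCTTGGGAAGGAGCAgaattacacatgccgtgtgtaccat
H2-Q5 probe A_51_P400752, chr17:34255077-34255511, minus strand, mm7: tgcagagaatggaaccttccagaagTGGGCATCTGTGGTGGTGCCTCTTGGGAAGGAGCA
The H2-T23 probe shared 28 bases with an H2-Q7 probe. One of the 2 H2-D1 probes, A_52_P246277 at chr17:34358688-34358747, is described in the files as a thymus-leukaemia antigen cDNA and lies far from the other, A_51_P496996 at chr17:33361850-33362082. It stays among the member probes by its assigned gene name, but it may not measure H2-D1. It is reported by its probe name below. The probes of both transporter subunits, Tap1 and Tap2, are shown because the results turn on them. The Tap2 probe maps to a span of 588 bases, so it crosses a splice junction.
Tap1 probe A_51_P100327, chr17:32273751-32273810, plus strand, mm7: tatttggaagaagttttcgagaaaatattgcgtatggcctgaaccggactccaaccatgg
Tap2 probe A_52_P86176, chr17:32294682-32295269, plus strand, mm7: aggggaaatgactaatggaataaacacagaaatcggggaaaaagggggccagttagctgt

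A short interferon-related motif recurs in the promoters of the members. RefSeq windows (GRCm38.p6) were found for 8 of the 10 genes, and the 250 bases before the start were searched on both strands. The interferon regulatory factor core AANNGAAA was present in 6 of the 8 windows, and in 21.3% of the 32851 promoter windows of the table. The stretches around it are printed because H2-K1, H2-D1 and H2-Q10 are nearly alike there. H2-M3 has the same core within other letters. The core is in capitals, and capitals that begin with TTTC are matches on the opposite strand.
H2-K1, chr17:34000406-34000461, minus strand: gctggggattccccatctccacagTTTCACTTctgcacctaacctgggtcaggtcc
H2-D1, chr17:35262920-35262975, plus strand: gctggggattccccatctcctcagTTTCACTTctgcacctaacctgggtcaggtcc
H2-Q10, chr17:35469910-35469965, plus strand: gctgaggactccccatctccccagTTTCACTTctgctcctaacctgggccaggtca
H2-M3, chr17:37270109-37270164, plus strand: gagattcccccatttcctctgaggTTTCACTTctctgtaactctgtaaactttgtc
H2-T23, chr17:36032751-36032849, minus strand: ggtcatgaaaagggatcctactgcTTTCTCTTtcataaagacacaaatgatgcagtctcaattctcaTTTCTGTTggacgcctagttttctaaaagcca
B2m, chr2:122147526-122147581, plus strand: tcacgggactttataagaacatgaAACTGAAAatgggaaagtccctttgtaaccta
A longer motif, GAAA, any 2 bases and GAAA again, which contains the core, was in 2 of the 8 windows (H2-T23 and B2m) and in 2.98% of all windows. CCAAT was in 7 of 8 against 33.8% and TGACG in 5 of 8 against 17.8%. The Tap1 and Tapbp windows did not contain the core in these letters. A match is a description of the letters and not of a bound site.

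The arrays were comparable, with a slide to keep in mind. Between 59.4% and 71.6% of spots were well above background, and 1 to 29 spots an array were saturated. Slide 3 held only Ifnar2-/- arrays (numbers 2 and 3 of both injections) and had 23 to 29 saturated spots, against 1 to 4 on the others. Its arrays also had the lowest shares of spots well above background, 59.4% to 62.5%, against 65.2% to 71.6% on the others. No member probe was saturated on any array: the brightest member signal lay between 6.93 and 7.85, and the brightest spot between 8.51 and 8.99. Compression of bright signals below saturation was not tested. It would bear most on H2-K1, H2-D1, H2-Q10, H2-T23 and B2m, whose brightest probes had the highest signals among the member genes. Each member probe was well above background on each of the 12 arrays, except the H2-D1 probe A_52_P246277 on PBS array 2 and IFN-β array 3 of Ifnar2-/-. Markers of macrophages, B cells and mast cells were measured well above background on every array. The targeted gene was mixed: one Ifnar2 probe (A_52_P190405) was at 2.69 to 3.20 in Ifnar2-/- and 4.42 to 4.88 in wild type, and the other (A_51_P338924) was at 2.49 to 3.11 in Ifnar2-/- and 1.08 to 1.78 in wild type. The labels do not say which part of the gene is missing.

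The H2 region itself differed between the genotypes. H2-Ea, a class II gene that is known to be silent in mice of the b haplotype, was between -7.83 and -6.18 on the 6 Ifnar2-/- arrays, all of them not well above background, and between 1.94 and 2.68 on the 6 wild-type arrays, all well above it. The level was at least 284-fold lower in Ifnar2-/- after PBS and at least 228-fold lower after IFN-β (limma adjusted p = 2.18e-07 and 2.05e-08), as the wild-type mean over the lowest signal well above background. The probe, which shows this split, reads as follows.
H2-Ea probe A_51_P222741, chr17:32421735-32421794, minus strand, mm7: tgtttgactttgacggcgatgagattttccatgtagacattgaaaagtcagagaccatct
The mm7 interval of the members on chromosome 17, from 32004181 to 35427193, held 25 called probes of 218 between the genotypes after PBS (11.5%), against 3.25% on the rest of the chromosome. In every comparison between the genotypes below, the Ifnar2 genotype and the H2 alleles cannot be told apart. Comparisons of IFN-β with PBS are within a genotype, but in wild type they are partly confounded with slide. All wild-type PBS arrays were on slide 1, with IFN-β array 1, while IFN-β arrays 2 and 3 were on slide 2. Within slide 1 the wild-type IFN-β array was higher than the PBS mean by 3.18 for Tap1, 2.08 for Tap2 and 2.33 for Tapbpl. Tapbp was 1.25 higher there, and H2-M3 was 1.16 higher.

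In wild-type mice, IFN-β was followed by higher signal of the peptide transporter, the loading factors and part of the heavy chains. Of the 10 genes, each taken by its brightest probe, 8 were called higher, 0 lower, and 2 (H2-D1 and B2m) were not called, while 18.4% of all probes were called higher, 21.6% lower and 40% in either direction. The median over the 10 genes was 0.77, against -0.04 over all probes. Of the 20 probes, 13 were called higher and 0 lower. The calls were of unlike strength. Tap1, Tap2, Tapbp, Tapbpl and H2-M3 passed in all 26 other settings. H2-K1 passed in 15, H2-T23 in 12 and H2-Q10 in 9. The count was 5 without IFN-β array 1, without IFN-β array 3, without PBS array 1 and without PBS array 2 of wild type. In bulk cells, a change in which cells were washed out and a change in RNA per cell cannot be told apart.

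**Figure D1:**
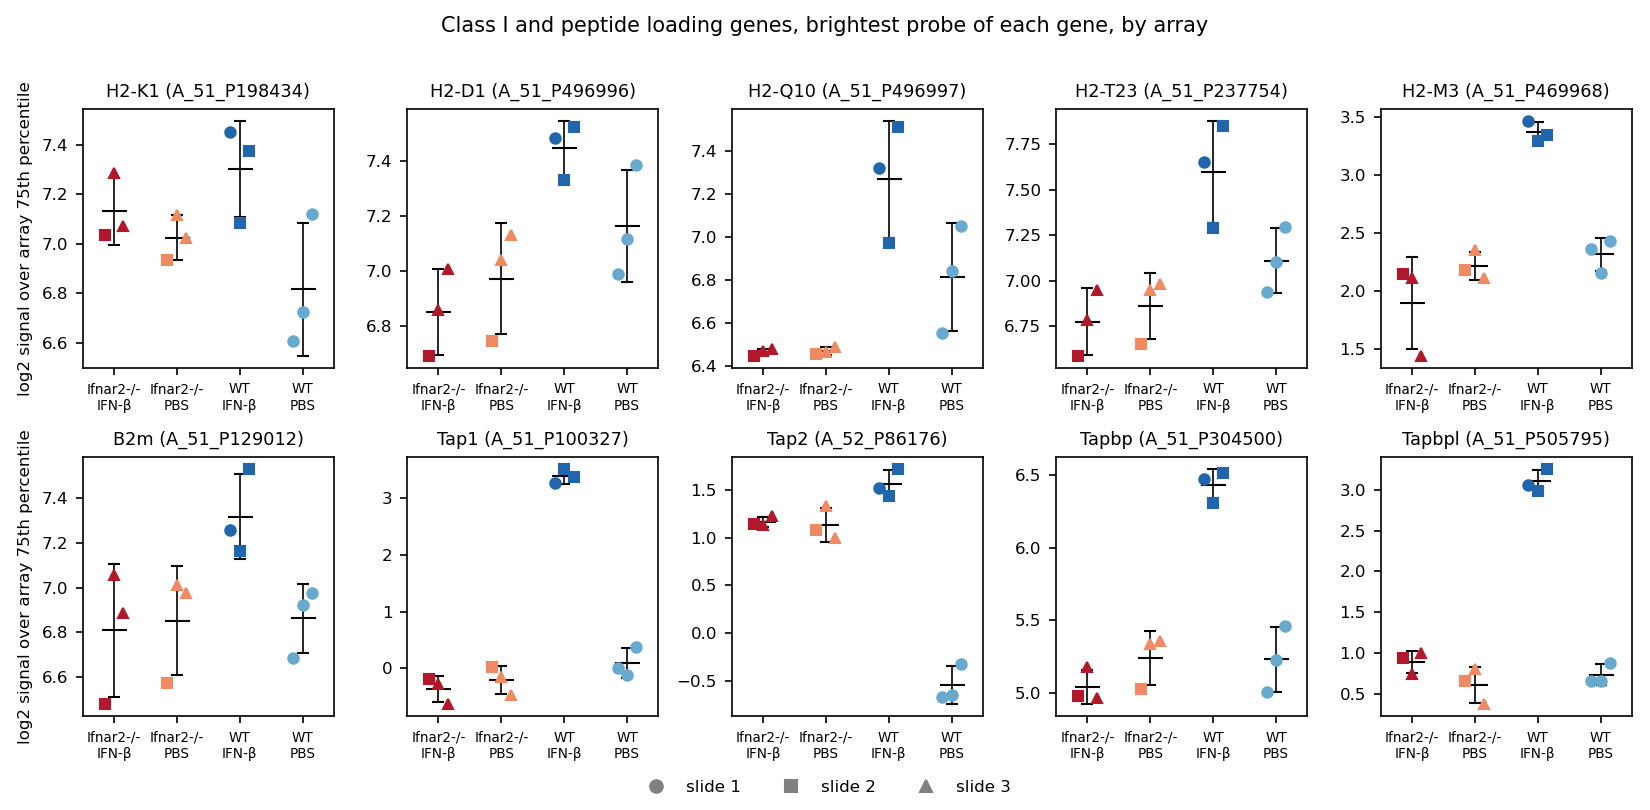
Log2 signal over the array's 75th percentile for the brightest probe of each of the 10 genes (y axis, a scale of its own in each panel), with each point 1 array, its shape the slide, and the bar and whiskers the mean and SD of 3 arrays. The wild-type IFN-β arrays stand above the wild-type PBS arrays without overlap for Tap1, Tap2, Tapbp, Tapbpl and H2-M3. They also do so for B2m, which was not called. The Tap2 panel is the one in which both Ifnar2-/- groups stand above wild-type PBS.

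Tap1, the transporter subunit with the largest response among the 10, was at 3.27, 3.52 and 3.38 in wild type after IFN-β, against 0.00, -0.12 and 0.38 after PBS. The groups were far apart, and the difference was 3.30 ± 0.18 (SE, limma adjusted p = 3.03e-07), a 9.87-fold higher signal. Tap1 in Ifnar2-/- was at -0.19, -0.29 and -0.64 after IFN-β, against 0.02, -0.16 and -0.48 after PBS. These groups overlapped, and the difference was -0.17 ± 0.18 (adjusted p = 0.670).

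Tap2, the partner without which Tap1 does not pump, was at 1.52, 1.44 and 1.72 in wild type after IFN-β, against -0.68, -0.65 and -0.32 after PBS, a difference of 2.11 ± 0.14 (limma adjusted p = 1.14e-06) or 4.32-fold. Tap2 in Ifnar2-/- was at 1.14, 1.13 and 1.22 after IFN-β, against 1.08, 1.33 and 0.99 after PBS. The difference there was 0.03 ± 0.14 (adjusted p = 0.923). The Ifnar2-/- arrays of both injections thus lay between the wild-type groups and closer to wild type after IFN-β.

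Tapbp, which bridges the heavy chain and the pump, gave the same direction with both probes. Probe A_51_P304500 was at 6.48, 6.31 and 6.52 in wild type after IFN-β, against 5.0, 5.22 and 5.46 after PBS, a difference of 1.21 ± 0.15 (limma adjusted p = 9.59e-05). In Ifnar2-/- it was at 4.98, 5.17 and 4.96 after IFN-β, against 5.03, 5.34 and 5.36 after PBS. Probe A_52_P684830, which the files assign to another transcript variant, differed by 1.5 ± 0.13 in wild type (adjusted p = 9.11e-06) and by -0.10 ± 0.13 in Ifnar2-/- (adjusted p = 0.715). Tapbpl, which edits peptides away from the pump, was at 3.06, 2.99 and 3.26 in wild type after IFN-β, against 0.66, 0.66 and 0.88 after PBS. The difference was 2.37 ± 0.14 (adjusted p = 5.80e-07), or 5.18-fold, and the groups did not overlap. Tapbpl lies on chromosome 6, outside the H2 region, and in Ifnar2-/- it was at 0.94, 0.74 and 1.00 after IFN-β, against 0.65, 0.80 and 0.37 after PBS.

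B2m, the light chain that every classical class I molecule needs, gave 2 unlike answers. Its brightest probe, A_51_P129012, was at 7.26, 7.16 and 7.53 in wild type after IFN-β, against 6.69, 6.92 and 6.98 after PBS. The groups did not overlap, but the difference of 0.46 ± 0.18 was not called (limma adjusted p = 0.0711), nor was the 0.43 ± 0.19 of the neighbouring probe A_51_P129006 (adjusted p = 0.0920). Probe A_52_P105594, at chr2:121889716-121889775, was at 3.35, 2.95 and 3.17 after IFN-β, against 0.54, 0.43 and 0.47 after PBS, a difference of 2.68 ± 0.16 (adjusted p = 5.83e-07). The files name it from a cDNA of unclassified product and place it upstream of the other probes, which lie from 121893518 to 121893698, so it may not measure the B2m coding transcript. The 9 or 10 measured spots of A_51_P129006 on an array had an SD of 0.07 to 0.18. A_51_P129012 was called in 5 of 26 other settings, with 0.46 and an adjusted p of 0.0462 among the wild-type arrays alone and of 0.0452 without Ifnar2-/- IFN-β array 1, and with 1.19 as the mean of the 3 probes. A_51_P129006 was called in 4 of them, with an adjusted p of 0.0342 among the wild-type arrays alone and of 0.0434 without that array.

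H2-K1, a classical heavy chain read by CD8 T cells, was called higher with all 3 of its probes. The brightest, A_51_P198434, was at 7.45, 7.08 and 7.38 in wild type after IFN-β, against 6.61, 6.72 and 7.12 after PBS. These groups overlapped in 1 array each, and the difference was 0.49 ± 0.16 (limma adjusted p = 0.0295). Its processed signal lay between 73496 and 149015 over the 12 arrays, with an SD of 0.05 to 0.16 between the 7 to 10 spots measured on an array. Probe A_52_P474242 gave 0.91 ± 0.15 (adjusted p = 6.20e-04) and A_52_P50496, whose sequence is printed above, gave 0.68 ± 0.19 (adjusted p = 0.0154). The A_52_P50496 call was lost with quantile normalization (0.31, adjusted p = 0.201), when slide was a fixed block (0.62, 0.126) and without scaling (0.52, 0.104). It was also lost without wild-type IFN-β array 3 (0.56, adjusted p = 0.0596) and without wild-type PBS array 1 (0.49, adjusted p = 0.0586). H2-D1, the other classical heavy chain, was at 7.48, 7.33 and 7.52 with probe A_51_P496996 after IFN-β, against 6.99, 7.12 and 7.39 after PBS. The groups overlapped, and the 0.28 ± 0.15 was not called (adjusted p = 0.158). The probe A_52_P246277 was at -1.80, -2.70 and -2.45 after IFN-β, against -3.93, -3.65 and -3.95 after PBS, groups that did not overlap. Its 1.53 ± 0.57 was not called (adjusted p = 0.0535), but it was called in 6 other settings. Among the wild-type arrays alone the adjusted p was 0.00274, without Ifnar2-/- IFN-β array 3, 1 of the arrays near background, it was 0.00249, without IFN-β array 2 of Ifnar2-/- it was 0.0278, and with normexp the value was 0.99 (adjusted p = 6.52e-04).

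The non-classical heavy chains differed among themselves. H2-M3, which presents formylated peptides of bacteria and mitochondria, was at 3.47, 3.30 and 3.35 in wild type after IFN-β, against 2.36, 2.16 and 2.43 after PBS. The groups did not overlap, the difference was 1.06 ± 0.18 (limma adjusted p = 9.63e-04), and the second probe gave 0.89 ± 0.22 (adjusted p = 0.00861). The call of the second probe was lost with slide as a fixed block. H2-T23, the Qa-1 heavy chain that holds leader peptides of other class I molecules for receptors of natural killer cells, was at 7.66, 7.29 and 7.85 after IFN-β, against 6.94, 7.10 and 7.29 after PBS. The groups met at 7.29, with a difference of 0.49 ± 0.17 (adjusted p = 0.0437). H2-Q10, known as a secreted heavy chain made mainly by the liver, was at 7.32, 6.97 and 7.51 with probe A_51_P496997 after IFN-β, against 6.55, 6.84 and 7.05 after PBS. That difference of 0.45 ± 0.16 (adjusted p = 0.0404) comes from the probe that other Q genes share. The 3 further H2-Q10 probes differed by 0.43, 0.73 and 0.45 and were not called.

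In Ifnar2-/- mice, none of the 10 genes differed detectably between IFN-β and PBS. Of the 20 probes, 0 were called by limma, and 0 had an unadjusted p under 0.05, with 1.11% of all probes called and 5104 of the 27718 at an unadjusted p under 0.05. The median over the 10 genes was -0.06, against -0.02 over all probes. The 95% confidence intervals of the brightest probes ran from as low as -0.72 (H2-M3) to as high as 0.60 (Tapbpl), so smaller changes cannot be seen here. The Tap1 interval was -0.57 to 0.23 in Ifnar2-/-, and 2.90 to 3.70 in wild type. All 26 other settings also gave 0 of the 10 genes. The background moved more: 309 probes were called, 199 with the replicate number as a block, 85, 41 and 119 without PBS arrays 1, 2 and 3 of Ifnar2-/-, 181 without wild-type IFN-β array 1, and 202 and 192 without wild-type PBS arrays 1 and 2.

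**Figure D2:**
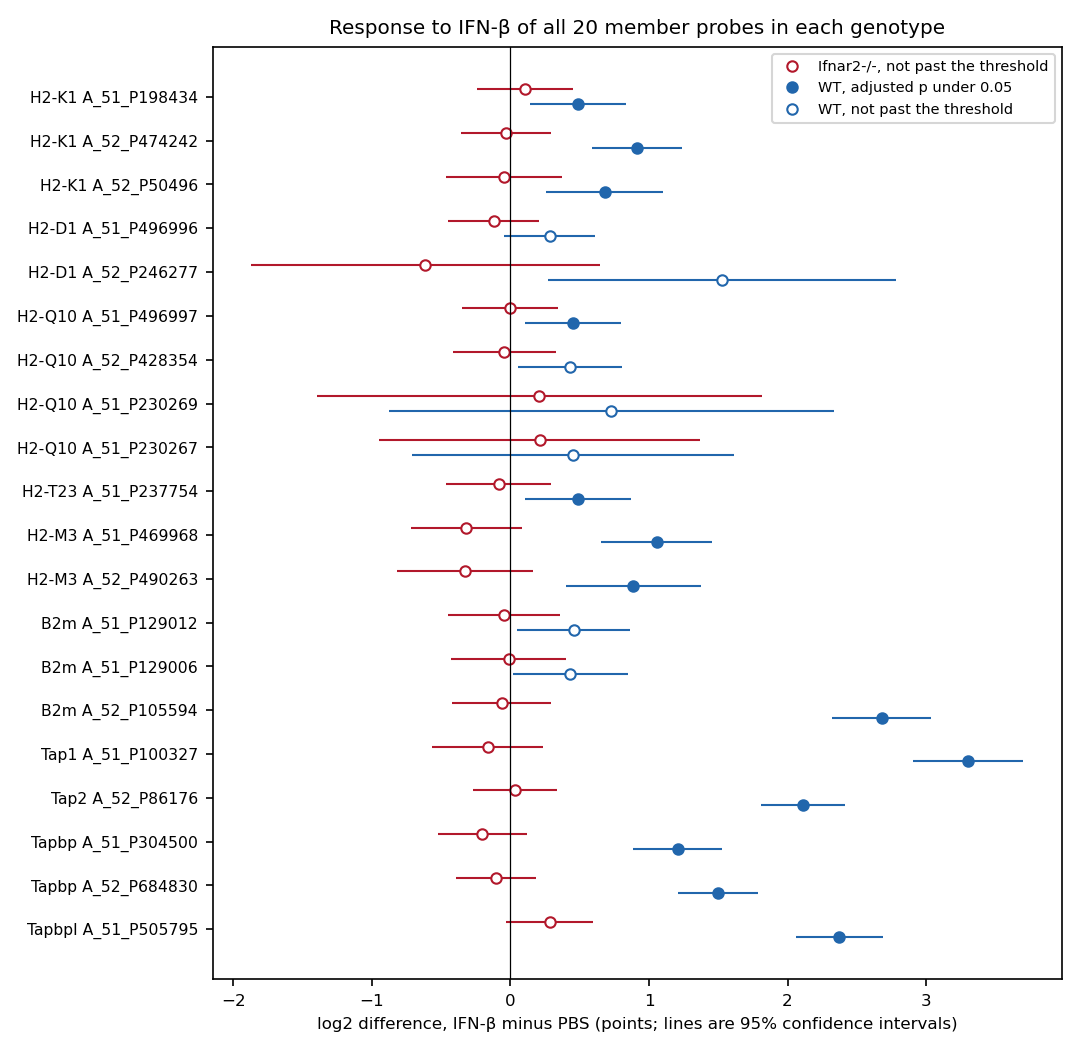
Log2 difference between IFN-β and PBS (x axis) for each of the 20 member probes (rows) in Ifnar2-/- (red, upper point of a row) and wild type (blue, lower point), with 95% confidence intervals from limma and filled points for probes past the threshold. All 20 Ifnar2-/- points are open, 13 of the wild-type points are filled, and the B2m probe A_52_P105594 stands apart from the other B2m probes.

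The response itself was tested between the genotypes, as the Ifnar2-/- response minus the wild-type response. Of the 10 genes, 5 were called, all lower in Ifnar2-/-: Tap1 at -3.47 ± 0.26 (limma adjusted p = 7.26e-06), Tapbpl at -2.09 ± 0.20, Tap2 at -2.08 ± 0.20, Tapbp at -1.41 ± 0.21 and H2-M3 at -1.37 ± 0.26 (adjusted p = 0.00403). Among all probes 9.19% were called lower, 8.54% higher and 17.7% in either direction, and the median of the 10 genes was -0.97 against 0.04. Without slide 3, which leaves 1 array in each Ifnar2-/- group, Tapbp was -1.26 and not called (adjusted p = 0.0547), and the other 4 genes remained called. For H2-K1, H2-D1, H2-Q10, H2-T23 and B2m the difference between responses was -0.57 to -0.38 and not called, with an interval of -0.87 to 0.11 for H2-K1. The H2-K1 probe A_52_P474242 was called on its own at -0.94 ± 0.21 (adjusted p = 0.00981). That call was lost with quantile normalization (-0.50, adjusted p = 0.0887), no scaling (-0.67, 0.0775), slide as a fixed block (-0.97, 0.0613) and without slide 3 (-0.99, 0.161). Also called was the B2m probe A_52_P105594 at -2.74 ± 0.23 (adjusted p = 1.76e-05). Of the 20 probes, 9 were called lower and 0 higher.

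Without interferon, Tap2 was the member gene whose signal differed between the genotypes. After PBS, 1 of the 10 genes was called, against 4.52% of all probes (2.49% higher and 2.03% lower). Tap2 was 1.68 ± 0.14 higher in Ifnar2-/- (limma adjusted p = 6.85e-05), a 3.21-fold higher signal in which the lowest Ifnar2-/- array (0.99) stood above the highest wild-type array (-0.32). It was called in 25 of 26 other settings, and with slide as a fixed block it was 1.59 and not called (adjusted p = 0.100). No slide holds both PBS groups. Tap1, whose product works only with that of Tap2, was -0.29 ± 0.18 (adjusted p = 0.395). Of the 20 probes a further 1 was called, the H2-Q10 probe A_52_P428354, at 4.37, 4.47 and 4.48 in Ifnar2-/- against 4.82, 5.21 and 5.48 in wild type. Its -0.73 ± 0.17 (adjusted p = 0.0349) was not called in several settings, among them slide as a fixed block and the removal of any one PBS array except wild-type array 1. Among all probes 1253 were called, 658 and 676 without PBS arrays 2 and 3 of Ifnar2-/-, and 627 and 827 without wild-type PBS arrays 1 and 3.

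**Figure D3:**
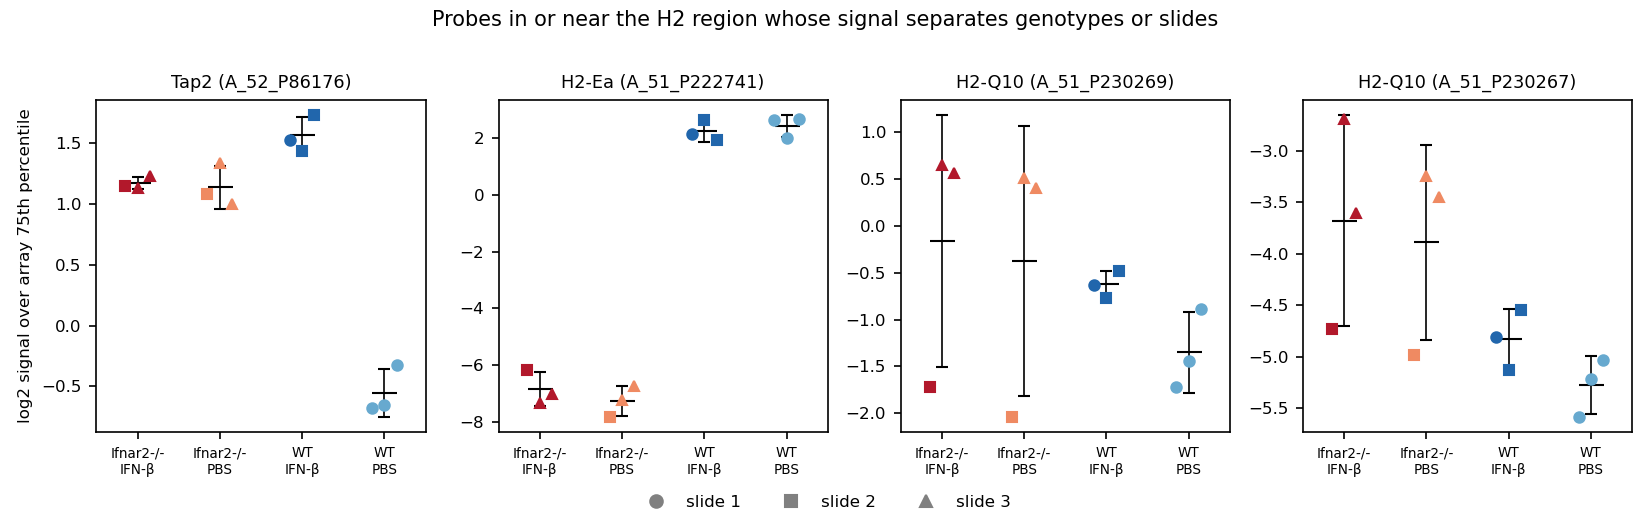
Log2 signal over the array's 75th percentile (y axis, a scale of its own in each panel) for Tap2, H2-Ea and a pair of H2-Q10 probes, with each point 1 array, its shape the slide, and the bar and whiskers the mean and SD of 3 arrays. H2-Ea separates the genotypes in both injections, Tap2 sets wild-type PBS apart from the other 3 groups, and in both H2-Q10 panels the Ifnar2-/- arrays of slide 3 (triangles) stand above those of slide 2 (squares).

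After IFN-β, the class I genes were lower in Ifnar2-/- almost throughout. Of the 10 genes, 9 were called lower and 0 higher, with 18.2% of all probes called lower, 20.7% higher and 38.9% in either direction, and the median was -0.81 against 0.06. Tap1 was 3.76 ± 0.18 lower in log2 units, 13.6-fold (limma adjusted p = 9.02e-08). Tapbpl was lower by 4.63-fold, H2-M3 by 2.78-fold, Tapbp by 2.63-fold, H2-T23 by 1.77-fold, H2-Q10 by 1.75-fold and H2-D1 by 1.51-fold. The H2-Q10 value is from the probe that other Q genes share. The other H2-Q10 probes were at -1.20 (called), 0.46 and 1.15 (both not called). Tap2 was lower by only 1.31-fold (-0.39 ± 0.14, adjusted p = 0.0435), and B2m by 1.42-fold (adjusted p = 0.0480), each called in 10 of 26 other settings. The brightest H2-K1 probe was not called (-0.17 ± 0.16, adjusted p = 0.414), while H2-K1 A_52_P474242 was at 4.87, 4.92 and 4.89 in Ifnar2-/- against 5.89, 5.65 and 6.06 in wild type (-0.98 ± 0.15, adjusted p = 4.12e-04). Of the 20 probes 15 were called lower. Without scaling between arrays, which moved the median of all probes by 0.38, 4 of the 10 genes were called (Tap1, Tapbp, Tapbpl and H2-M3) and the uncalled H2-K1 value turned to 0.21. Relative to that shift the members' differences are the same. In the same comparison monocyte markers were called lower in 3 of 4 cases, with sums of 53.4 to 67.7 multiples of the array's 75th percentile in Ifnar2-/- against 201 to 242 in wild type. T and natural killer cell markers were called higher in 7 of 8, with sums of 4.68 to 6.07 against 1.64 to 2.15. Mast cell markers were called higher in 6 of 7 (284 to 326 against 173 to 198) and dendritic cell markers in 5 of 7 (3.38 to 4.92 against 1.30 to 1.75). After PBS, 2 of 7 mast cell markers were already called higher in Ifnar2-/- (302 to 363 against 199 to 281). So were 2 of 7 dendritic cell markers (2.20 to 3.58 against 2.05 to 3.65). Of the monocyte and of the T and natural killer cell markers, 0 were called after PBS. Called lower after PBS were 2 of 7 neutrophil, 1 of 3 eosinophil and 1 of 8 mesothelial and stromal markers. Among all probes, 2.49% were called higher and 2.03% lower after PBS. After IFN-β, 2 of 3 eosinophil markers were called lower and 1 of 7 neutrophil markers higher. The macrophage, B cell and mesothelial lists held calls in both directions after IFN-β. The part of these cells in the class I differences was not tested. Within slide 2, which held 1 Ifnar2-/- and 2 wild-type IFN-β arrays, Tap1 differed by -3.64, Tapbpl by -2.18, Tapbp by -1.44, H2-M3 by -1.18 and Tap2 by -0.44.

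A pair of H2-Q10 probes divided the Ifnar2-/- arrays by slide. A_51_P230269 was at -1.72 and -2.04 on the Ifnar2-/- arrays of slide 2 (IFN-β and PBS), and at 0.66, 0.57, 0.52 and 0.41 on those of slide 3, whereas wild-type arrays were at -0.77 to -0.48 after IFN-β and -1.72 to -0.88 after PBS. A_51_P230267 was at -4.74 and -4.98 on slide 2 and -3.61 to -2.69 on slide 3 in Ifnar2-/-. The main value of A_51_P230269 between the genotypes after IFN-β (0.46, limma adjusted p = 0.646) therefore depends on the slide. With slide as a fixed block it was -1.15 (adjusted p = 0.0156), and without slide 3 it was -1.09. A_51_P230267 was 1.15 higher in Ifnar2-/- after IFN-β (adjusted p = 0.108) and 1.39 higher after PBS (adjusted p = 0.180). Within slide 2 its value after IFN-β was 0.10. The H2-Q10 probe A_52_P428354 went the other way after IFN-β, at -1.20 (adjusted p = 2.58e-04). Slide and mouse number cannot be told apart here.

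The other genes of the pathway were read from lists written with earlier results known. Their counts in wild type stand beside 18.4% of all probes called higher and 21.6% lower. In Ifnar2-/- 1.11% of all probes were called, and the response was called lower there for 9.19% of all probes. Nothing particular to a list is read from these counts. Of the interferon-inducible proteasome 4 of 4 measured genes were called higher in wild type, with Psmb9 at 2.37, Psmb8 at 2.11, Psmb10 at 2.05 and the activator subunit Psme1 at 1.46. None of the 4 was called in Ifnar2-/- (median 0.02), and all 4 responses were called lower there. Their constitutive counterparts were called in 2 of 3 cases with smaller differences, Psmb7 at 0.56 and Psmb6 at 0.41, and Psmb5 was at 0.27 (adjusted p = 0.17). Among aminopeptidases and chaperones, 3 of 6 were called higher. Lnpep, which trims peptides in endosomes, was at 1.42, Hspa5, a general chaperone, at 1.14, and Erap1, which trims peptides in the endoplasmic reticulum, at 0.91. The lectin chaperones Calr and Canx and the oxidoreductase Pdia3 were at 0.00, 0.05 and 0.17 and not called.

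The other heavy chains of the H2 region covered a wider range. Of 19 listed, 10 were measured, and 7 of these were called higher in wild type with a median of 0.97, led by H2-T24 at 3.77 and followed by H2-T22 at 1.33, H2-Q8 at 1.32 and H2-T10 at 1.30. H2-Q2, H2-Q5 and H2-Q7 were at 0.47, 0.49 and 0.53. In Ifnar2-/- 1 of the 10 was called, H2-Q8 at 1.05 (limma adjusted p = 0.0399), with the difference between its responses at -0.26 (adjusted p = 0.61). H2-T24 was lower in Ifnar2-/- after PBS too (-0.83, adjusted p = 0.042). Of 10 measured class I-like genes outside the region, 1 was called higher and 2 lower. Hfe, an iron regulator, was at 0.55, Mr1 at -0.97, and Raet1e was called lower with its probe well above background on only 2 of the 3 wild-type IFN-β arrays.

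Among 15 measured regulators of class I genes, 7 were called higher and 2 lower in wild type. Among those called higher, Stat2 was at 3.58, Irf1 at 2.69 and Irf9 at 1.73, and Irf2, Nfkb1 and Rfx5 were at 0.94, 0.72 and 0.55. Creb1 (-1.09) and Rfxank (-0.71) were called lower, and Ciita, the master regulator of class II genes, was at -0.21 and not called. None was called in Ifnar2-/-. Irf9, a subunit of the factor that binds interferon response elements, was lower in Ifnar2-/- after PBS (-0.97, limma adjusted p = 0.0020).

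**Figure D4:**
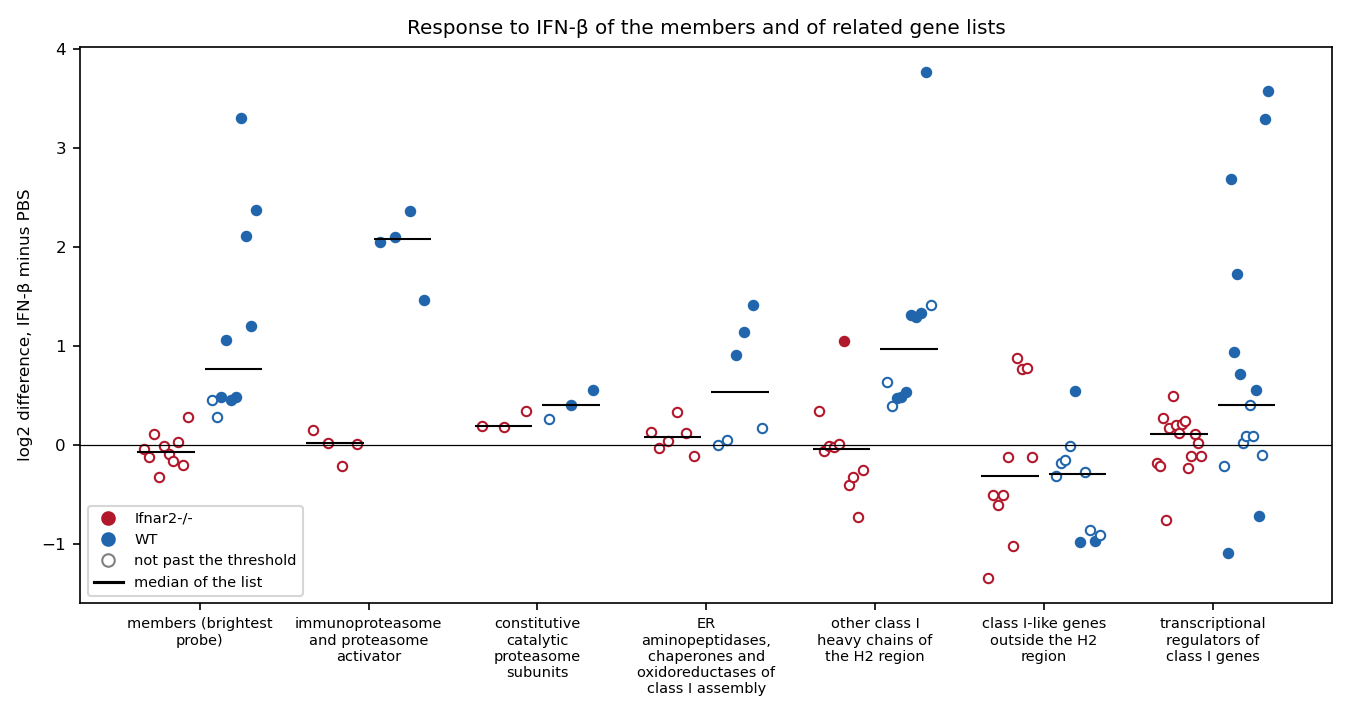
Log2 difference between IFN-β and PBS (y axis) for the 10 members and for 6 lists of related genes (x axis), with each point 1 gene by its brightest probe, red for Ifnar2-/- and blue for wild type, filled when past the threshold, and a line at the list's median. The only filled red point is H2-Q8, and the immunoproteasome genes lie between 1.46 and 2.37 in wild type.

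Cell type markers moved in the same wild-type comparison. Of 4 monocyte markers 3 were called higher, with a summed level, in multiples of the array's 75th percentile, of 201 to 242 after IFN-β against 63.2 to 94.5 after PBS. Of 8 T and natural killer cell markers 5 were called lower, with sums of 1.64 to 2.15 against 4.68 to 5.12. Macrophage markers gave 1 higher and 1 lower of 7, with sums of 404 to 490 against 366 to 516. Mesothelial and stromal markers were called lower in 4 of 8 cases (1.03 to 1.24 against 1.86 to 2.26), dendritic cell markers in 3 of 7, with 1 higher, and mast cell markers in 2 of 7. Single arrays stood apart: neutrophil markers summed to 102 on wild-type PBS array 1, and to 7.85 and 13 on the other wild-type PBS arrays. Erythroid markers summed to 515 on wild-type IFN-β array 3, and to 48.7 and 49.2 on the other arrays of that group. In Ifnar2-/- monocyte sums were 53.4 to 67.7 after IFN-β and 53.7 to 72.1 after PBS. Neutrophil sums there were 17, 73.2 and 187 after IFN-β, against 11.4, 8.84 and 14.7 after PBS, with 0 of 7 markers called and a median difference of 2.03. The part of these cells in the class I differences was not tested.

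Over the 12 arrays, the probes most like Tap1 included those of Phf11d, Ifi209, Ifi204 and Ddx58 (r = 0.995 for Ddx58), all known interferon-stimulated genes, out of 22987 probes well above background on all arrays. Those most like H2-K1 belonged to Pcgf3 (r = 0.925), Fam20b (r = 0.919), LOC56628, Ripk1 and Smap1. These are descriptions over 12 arrays that share 4 groups and 3 slides.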

How the data were processed

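Members, gene lists and settings were chosen with earlier results of these data known. Each of the 12 arrays (Cy3, 1 colour) holds 43379 non-control spots. The deposited processed signal is an intensity on a linear scale, made with Agilent Feature Extraction 9.5.3.1 per the submitters' processing notes, with the spatial background subtracted and a multiplicative trend removed within each array per the file headers. The deposited values of the series matrix are the same intensities (0 of 45018 values differed on any array). Probe positions are of build mm7, per the file headers. Names came from RefSeq (GRCm38.p6), through the accession for 22951 probes, the symbol for 6659 and an outdated symbol for 3109. The other 8455 probes have the name in the file.

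From these intensities, log2 values were taken and each array's 75th percentile was subtracted, spots marked as outliers were left out, and spots of a probe were averaged. A probe was kept when every array of some group had it well above background and 6 or more arrays measured it (27718 of 41174). All 12 arrays entered 1 limma 3.58.1 fit of 4 group means in R 4.3.3 (files read with the data.table package, version 1.17.8; 8 residual and 2.54 prior degrees of freedom), with 2-sided tests, Benjamini-Hochberg adjustment over the kept probes and a threshold of 0.05. A gene is represented by its brightest kept probe. Every probe of the 10 members is reported, lists may be named in full or by their largest and smallest differences, and the 5 genes most correlated with Tap1 and H2-K1 are named, except an item that is not reported here. A bound ("at least") sets the bright group's mean against the lowest signal well above background, or the probe's own signal where higher. The number of arrays limits the precision. The fit was tested on simulated data with the spread of the kept probes. Of 50 probes shifted in wild type after IFN-β, 5 were called at a shift of 0.5 and 34 at 1. At shifts of 2 and 3, 46 and 49 of 50 were called. Few probes were shifted there, unlike in these data, so these shares do not carry over to the reported calls. Deviations of same-numbered arrays of the Ifnar2-/- groups correlated at 0.58, 0.21 and 0.11, and number and slide coincide there. Same-numbered arrays of Ifnar2-/- PBS and wild-type IFN-β, unlike in genotype and injection, correlated at 0.19, 0.10 and 0.14. These values therefore do not establish a pairing by replicate number, and the replicate block was fitted as an alternative only. In wild type the correlations were 0.05, -0.13 and -0.14. Alternatives covered background correction, scaling, the filter, slide, the replicate block, probe choice, the arrays fitted and leaving out each array.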

Additional observations from a re-analysis of the deposited data

Results flagged for a closer look

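The response to IFN-β differed between the genotypes, by the test of the difference itself in limma, for 5 of the 10 genes. The Ifnar2-/- response minus the wild-type response was -3.47 for Tap1, -2.09 for Tapbpl, -2.08 for Tap2, -1.41 for Tapbp and -1.37 for H2-M3 in log2 units. For Tap2 the signals after PBS also differed between the genotypes, by 1.68, so that the smaller response in Ifnar2-/- starts from a higher level. H2-Ea signal divides the same mice, so H2 alleles and the Ifnar2 genotype cannot be told apart for any of the 5 genes. This includes Tapbpl, which lies on chromosome 6. In groups of 3 arrays no single array was tested as an outlier.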

How the results depend on the processing

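The 5 genes with the larger responses in wild type (Tap1, Tap2, Tapbp, Tapbpl and H2-M3) kept direction and call in all 26 other settings. Member genes called in wild type were 5 in place of 8 with no scaling between arrays, with the 75th percentile over probes detected throughout, with no filter on dim probes and with slide as a fixed block, and 5 to 8 with 1 array left out. All probes called in wild type were 11085, with 6861 with slide as a fixed block, 7260 with 1 probe per gene, 7097 with the mean of a gene's probes, and 8883 to 12257 with 1 array left out. In Ifnar2-/-, all probes called were 309, with 95 with no filter, 178 with slide as a fixed block, 15 without slide 3, 199 with the replicate block, 187 with the mean of a gene's probes, 19 with only the arrays of the groups compared, and 41 to 403 with 1 array left out. The replicate block moved no other count of calls by over 1.5 times, and without slide 3 or the arrays of the other groups fewer arrays estimate the spread. For the difference between the responses, all probes called were 4915, with 2956 with slide as a fixed block, 2168 without slide 3, 3119 with the mean of a gene's probes, and 3642 to 5941 with 1 array left out, and member genes were 5 with any 1 array left out, 4 without slide 3 and 6 with the mean of a gene's probes. After PBS, the member gene called was 0 in place of 1 with slide as a fixed block, and all probes called were 1253, with 57 with slide as a fixed block, 396 without slide 3, and 627 to 1802 with 1 array left out. After IFN-β, member genes called between the genotypes were 4 in place of 9 with no scaling and 7 to 8 with 1 array left out, and all probes called were 10769, with 6611 with slide as a fixed block, 6863 without slide 3, 7104 with 1 probe per gene, 7008 with the mean of a gene's probes, and 8232 to 10998 with 1 array left out. Fewer features are tested with 1 probe per gene or the mean. For H2-Q10 A_51_P230269 the Ifnar2-/- minus wild-type value after IFN-β turned to -1.15 with slide as a fixed block and -1.09 without slide 3, against 0.46. Of all called probes, 46.0% were higher in wild type after IFN-β, and 31.7% with no scaling; 84.5% in Ifnar2-/-, and 70.1% with normexp background correction; 48.2% for the difference between the responses, and 71.6% with no scaling; and 53.3% between the genotypes after IFN-β, with 79.9% with no scaling and 42.6% with normexp. No scaling moved the median of all probes by -0.16, 0.11, 0.27 and 0.38 in these comparisons and by 0.10 after PBS. The causes were otherwise not tested. Slide was fitted as a random block with a correlation of -0.05. Of the H2-D1 probe A_52_P246277, 2 arrays were near background, which limits its precision.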
